A study of Mus musculus with 15 samples.

Results

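The genes described here are 34 genes of the red-cell and platelet lineages, 29 of them erythroid and 5 megakaryocytic, taken by symbol from both normalized expression tables. Of these, 28 erythroid and 5 megakaryocytic genes (33 in all) were listed in each table, among 16470 genes in the vehicle table and 16428 in the ibrutinib table. Ahsp was listed in neither. RNA was sequenced from splenic cells of tumor burdened C57Bl/6 mice, isolated as malignant B-cells by mechanical disruption and cultured for 24 h. One genotype was Eμ-TCL1, in which a human TCL1 transgene under the immunoglobulin heavy-chain enhancer gives a B-cell leukemia. The other was Eμ-TCL1;p53R172H/+, which adds 1 germline copy of the p53 mutation R172H to the same transgene, so that every group carried the transgene. The cells received either vehicle (DMSO) or 5 μM ibrutinib, an inhibitor of the kinase BTK. There were 3 libraries of Eμ-TCL1 and 5 of Eμ-TCL1;p53R172H/+ cells in DMSO, and 3 and 4 in ibrutinib. The sources used here do not give the mice's age at cell isolation or state whether libraries of 1 group came from separate mice, so p-values measure only the spread between these libraries.

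Red cells are made from committed progenitors that depend on the erythropoietin receptor Epor and on the transcription factors Gata1, Klf1 and Tal1. These cells take up iron through the transferrin receptor Tfrc, build heme in a pathway that starts with Alas2, and fill with alpha and beta globin before they lose the nucleus. Megakaryocytes share Gata1 and Nfe2 with them and shed platelets, which carry the integrin Itga2b, the glycoproteins Gp9 and Gp1bb, and the chemokines Pf4 and Ppbp. The mouse spleen is a site of red-cell formation in adult life as well as a place where old red cells are removed, so RNA of this kind can accompany splenic lymphocytes.

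The 100 bases before the RefSeq start site (GRCm38.p6) are shown for 8 of the genes, because the erythroid genes below were high in the same libraries and several carry a letter string of the GATA family near the start. Capitals mark the string GATA preceded by A or T and followed by A or G, read on either strand, and all sequences run 5′ to 3′ on the strand of the gene. The heme enzyme gene Alas2 (chrX:150547317-150547416, plus strand), the factor gene Klf1 (chr8:84901882-84901981, plus strand), the receptor gene Epor (chr9:21963577-21963676, minus strand) and the membrane genes Rhag (chr17:40811049-40811148, plus strand) and Kel (chr6:41704326-41704425, minus strand) each held a match in this stretch. The beta-globin gene Hbb-bs (chr7:103827929-103828028, minus strand), the platelet gene Pf4 (chr5:90772335-90772434, plus strand) and the widely expressed Tfrc (chr16:32608796-32608895, plus strand) held none and are shown for comparison. Hbb-bs held 1 match farther out, at 210 bases before the start, and is counted with a match over the 250 bases below. For Alas2, Klf1, Rhag, Kel and Hbb-bs the GENCODE M21 gene model begins upstream of the RefSeq start.
Alas2: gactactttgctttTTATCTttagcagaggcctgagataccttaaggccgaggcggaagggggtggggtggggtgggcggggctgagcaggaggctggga
Klf1: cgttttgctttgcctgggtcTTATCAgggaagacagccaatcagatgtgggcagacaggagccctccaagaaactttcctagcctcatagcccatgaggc
Epor: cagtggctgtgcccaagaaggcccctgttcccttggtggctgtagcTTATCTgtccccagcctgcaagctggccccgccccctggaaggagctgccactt
Rhag: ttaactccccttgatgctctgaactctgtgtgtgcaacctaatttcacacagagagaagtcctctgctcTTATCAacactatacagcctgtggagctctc
Kel: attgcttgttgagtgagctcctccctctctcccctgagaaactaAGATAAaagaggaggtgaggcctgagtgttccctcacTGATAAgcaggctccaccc
Hbb-bs: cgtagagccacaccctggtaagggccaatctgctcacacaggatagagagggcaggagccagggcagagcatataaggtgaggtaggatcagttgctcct
Pf4: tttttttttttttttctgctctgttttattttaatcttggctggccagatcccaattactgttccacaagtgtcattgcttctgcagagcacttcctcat
Tfrc: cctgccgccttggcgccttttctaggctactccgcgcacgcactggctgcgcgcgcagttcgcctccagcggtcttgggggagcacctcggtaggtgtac
Over the 250 bases before the start, 13 of 20 erythroid genes with an entry held at least 1 such string, as did 1 of the 5 megakaryocyte genes (Gp1bb), against 26.5% of all 32851 promoters in the RefSeq table. The string CCNCNCCC, of the kind that Klf1 binds, was in 10 of the 20 erythroid and 3 of the 5 megakaryocyte genes, against 45.9% of all promoters. These counts are per gene and the shares of all are per promoter. Tal1 and Tfrc, with more than 1 promoter, counted if any of theirs matched. No entry was at hand for Car1, Xpo7, Car2, Slc25a37, Ank1, Fech, Slc4a1 and Nfe2. A match here is a string of letters and not a site shown to be bound.

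One library in each table stood apart from the rest of its own group. These were Eμ-TCL1 replicate 2 in DMSO and Eμ-TCL1 replicate 1 in ibrutinib, called erythroid-high below because they were picked out by their summed erythroid level. Their summed B-cell markers (10 genes, among them Cd79a and Cd79b) stood at 612.1 and 486.4 normalized CPM, against 2883.6 to 6536.2 in the other 4 Eμ-TCL1 libraries. Btk, also among the 10, was an exception, at 71.4 and 60.3. It lay above Eμ-TCL1 replicate 4 (64.2 in DMSO, 44.4 in ibrutinib) and below replicate 3 (95.4 and 89.1). Their summed granulocyte and monocyte markers (11 genes, among them Elane and S100a8) stood at 38752.4 and 30418.2, against 39.2 to 1538.1 in the other 13 libraries, and all 11 were highest there in each table. Mast-cell and basophil markers reached 343.4 and 321.3, against 0.7 to 21.2 elsewhere. Red-pulp macrophage markers reached 1079.1 and 817.3, against 9.2 to 738.9. All 10 of them were highest there in DMSO, but only 6 of the 10 in ibrutinib. In ibrutinib Cd5l (16.5 against 118.6), Hmox1 (369.0 against 419.3), Spic (10.5 against 12.6) and Cd163 (0.5 against 1.9) were higher in Eμ-TCL1;p53R172H/+ replicate 4. T-cell markers did not move with them (235.3 and 218.3, against 131.0 to 3635.4). Among the other libraries, Eμ-TCL1;p53R172H/+ replicates 1 and 2 in DMSO and replicate 1 in ibrutinib had B-cell sums of 290.4, 285.5 and 70.2 and T-cell sums of 2878.4, 3635.4 and 1914.4. In bulk RNA, fewer cells of a type and less RNA per cell cannot be told apart.

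The erythroid genes were 1.75% of all normalized signal in the erythroid-high DMSO library and 1.76% in the erythroid-high ibrutinib library. Each of the other 13 libraries had 0.0247% to 0.0492%. In DMSO the summed level of the 28 erythroid genes was 20112.8 in Eμ-TCL1 replicate 2, 336.2 and 268.3 in replicates 3 and 4, and 324.5, 398.7, 447.4, 427.1 and 372.5 in Eμ-TCL1;p53R172H/+ replicates 1 to 5. In ibrutinib it was 17208.1 in Eμ-TCL1 replicate 1, 318.0 and 212.3 in replicates 3 and 4, and 255.8, 311.0, 425.8 and 466.2 in Eμ-TCL1;p53R172H/+ replicates 1, 3, 4 and 5. Without the erythroid-high library the 2 genotypes overlapped in ibrutinib, while in DMSO 1 of the 5 Eμ-TCL1;p53R172H/+ libraries fell between the 2 Eμ-TCL1 libraries and the other 4 lay above both. The megakaryocyte sum in DMSO was 86.9 in Eμ-TCL1 replicate 2 and 5.4 to 9.4 in the other 7 libraries. In ibrutinib it was 93.1 in Eμ-TCL1 replicate 1, 19 and 18.6 in replicates 3 and 4, and 14.8, 67.8, 40.8 and 33.6 in Eμ-TCL1;p53R172H/+ replicates 1, 3, 4 and 5.

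**Figure D1:**
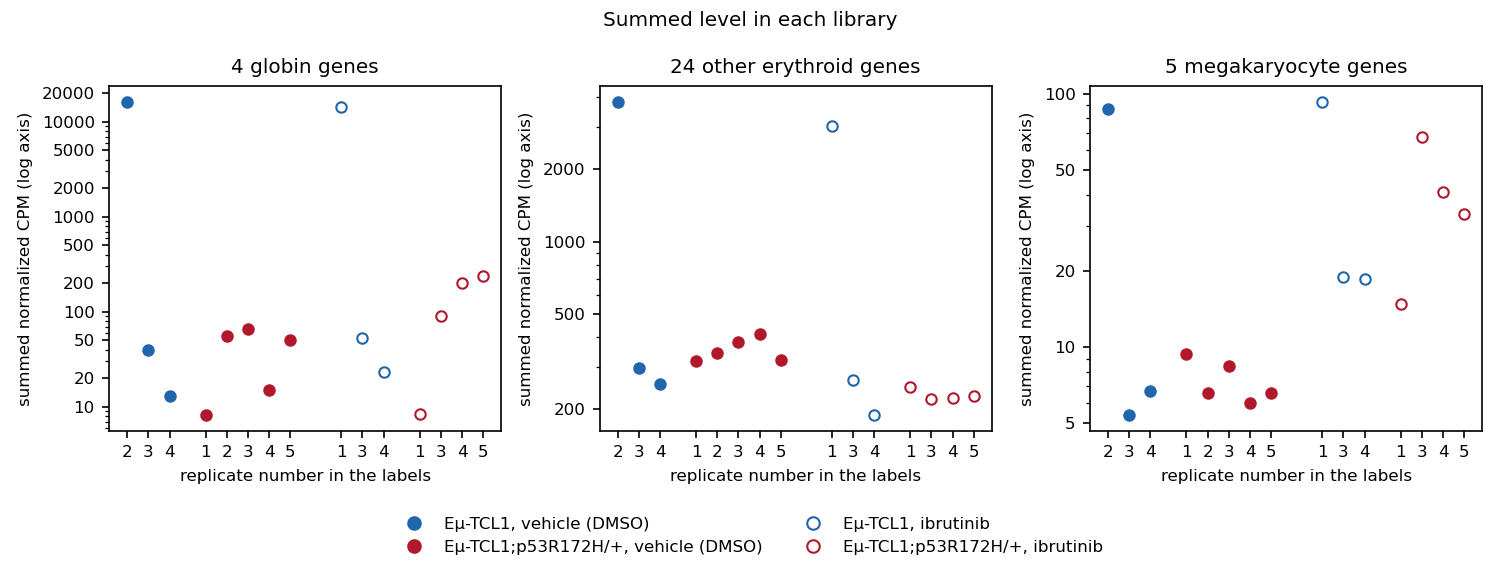
Summed level, in normalized CPM on a log axis, of the 4 globin genes, the 24 other erythroid genes and the 5 megakaryocyte genes in each library. Each point is 1 library, filled for DMSO and open for ibrutinib, blue for Eμ-TCL1 and red for Eμ-TCL1;p53R172H/+. Eμ-TCL1 replicate 2 in DMSO and replicate 1 in ibrutinib lie far above the rest for the globin genes (16284.2 and 14184.4), and 3 Eμ-TCL1;p53R172H/+ libraries in ibrutinib lie between them and the rest for the megakaryocyte genes (67.8, 40.8 and 33.6).

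Globins carried most of the erythroid signal wherever there was much of it. Hbb-bs, an adult beta-globin gene (chr7:103826534-103828096 in GENCODE M21, minus strand), stood at 11186.9 in Eμ-TCL1 replicate 2, at 23.7 and 7.3 in replicates 3 and 4, and at 4.3, 42.6, 43.6, 8.8 and 28.3 in Eμ-TCL1;p53R172H/+ replicates 1 to 5 in DMSO. In ibrutinib Hbb-bs stood at 8935.2 in Eμ-TCL1 replicate 1, at 30.5 and 13.5 in replicates 3 and 4, and at 4.8, 65.4, 130.0 and 145.9 in Eμ-TCL1;p53R172H/+ replicates 1, 3, 4 and 5. Apart from the erythroid-high libraries, the genotypes overlapped in both tables, and the 3 highest of these values were all Eμ-TCL1;p53R172H/+ cells in ibrutinib.

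Hbb-bt, the second adult beta-globin gene, was 1996.2 in Eμ-TCL1 replicate 2, 6.0 and 2.9 in replicates 3 and 4, and 1.4, 4.9, 9.1, 1.2 and 6.5 in the Eμ-TCL1;p53R172H/+ libraries in DMSO. Ibrutinib libraries had 1796.6, 5.4 and 3.7 in Eμ-TCL1 and 1.2, 6.8, 17.9 and 32.4 in Eμ-TCL1;p53R172H/+ cells. The alpha-globin gene Hba-a1 (chr11:32283511-32284465, plus strand) was 1896.6, 6.4 and 2.0 in Eμ-TCL1 and 1.4, 5.7, 8.0, 3.3 and 8.5 in Eμ-TCL1;p53R172H/+ cells in DMSO. All of these show the same order, with 1 Eμ-TCL1 library far above a common low range.

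In ibrutinib Hba-a1 was 2144.6, 11.2 and 3.6 in Eμ-TCL1 replicates 1, 3 and 4 and 1.5, 10.7, 30.2 and 30.0 in Eμ-TCL1;p53R172H/+ cells. Hba-a2 was 1204.5, 3.7 and 0.9 against 1.1, 2.8, 4.7, 1.7 and 6.9 in DMSO, and 1308.0, 6.3 and 2.3 against 1.0, 8.5, 25.1 and 31.5 in ibrutinib. The split within each pair of globin genes is uncertain, since the pairs are near-identical copies: the Hba-a1 and Hba-a2 transcripts matched at 99.8% of 538 aligned positions, and the Hbb-bs and Hbb-bt transcripts at 93.0% of 618. Summed over each pair, beta globin was 4.25 and 3.11 times alpha globin in the erythroid-high libraries and 2.0 to 5.59 times in the other 13. The ratio of summed globin to Alas2, which does not depend on how a table was scaled, was 19.8 and 20.2 in the erythroid-high libraries and 12.4 to 25.7 in the others, a range that covers both. Globins were 81.0% and 82.4% of the erythroid sum in these libraries, 2.53% to 14.6% in the other DMSO libraries and 3.32% to 51.4% in the other ibrutinib libraries.

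Among the heme and iron genes, only Alas2 was nearly as restricted as the globins. Alas2, the first and rate-limiting heme enzyme of red cells (chrX:150547375-150570638, plus strand), was 824.2, 2.4 and 0.6 in Eμ-TCL1 and 0.6, 3.3, 5.1, 1.1 and 3.9 in Eμ-TCL1;p53R172H/+ cells in DMSO. With ibrutinib Alas2 was 700.5, 4.3 and 0.9 in Eμ-TCL1 and 0.4, 4.5, 10 and 15.2 in Eμ-TCL1;p53R172H/+ cells. The later heme enzymes, which every cell uses, were measured in all libraries and were less raised in the erythroid-high ones. Fech, which inserts iron into heme, was 231.6 against 9.8 to 28.5 in DMSO and 208.3 against 12.8 to 27.6 in ibrutinib. Urod, an earlier enzyme of the same pathway, was 43.1 against 19.4 to 34.6 and 38.6 against 15.1 to 20.6.

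Cpox, an oxidase late in heme synthesis, was 33.3, 18.7 and 17.9 in Eμ-TCL1 and 12.2, 17.1, 15.2, 15.4 and 17.1 in Eμ-TCL1;p53R172H/+ cells in DMSO. With ibrutinib Cpox was 27.9, 16.4 and 16.8 in Eμ-TCL1 and 11.5, 11.8, 10.6 and 7.5 in Eμ-TCL1;p53R172H/+ cells. Cpox was thus the only one of the 33 genes whose genotypes overlapped in neither table, always with Eμ-TCL1 higher. Over all genes, 6.45% did not overlap in DMSO and 12.7% in ibrutinib, and the share without overlap in both was not counted. Slc25a37 (mitoferrin-1, which carries iron into mitochondria) was 287.0, 40.3 and 31.4 in Eμ-TCL1 and 43.9, 45.3, 36.4, 34.8 and 43.8 in Eμ-TCL1;p53R172H/+ cells in DMSO, where the genotypes overlapped. With ibrutinib Slc25a37 was 254.2, 64.7 and 44.4 in Eμ-TCL1 and 25.8, 24.5, 39.5 and 29.6 in Eμ-TCL1;p53R172H/+ cells, without overlap.

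Tfrc, the receptor for iron-loaded transferrin, is also used by dividing lymphocytes and was high in every library. In DMSO it was 276.2, 91.2 and 92.9 in Eμ-TCL1 and 111.8, 102.9, 162.3, 216.1 and 69.9 in Eμ-TCL1;p53R172H/+ cells. With ibrutinib Tfrc was 169.7, 24.1 and 23.3 in Eμ-TCL1 and 81.2, 39.5, 35.3 and 31.3 in Eμ-TCL1;p53R172H/+ cells. The erythroid-high library was highest in each table, at 1.28 and 2.09 times the next one.

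The membrane genes split into a restricted majority and Sptb. Slc4a1 (band 3, the anion exchanger of the red-cell membrane) was 631.6, 3.2 and 1.9 in Eμ-TCL1 and 0.6, 2.0, 1.3, 0.9 and 1.4 in Eμ-TCL1;p53R172H/+ cells in DMSO. In ibrutinib Slc4a1 was 497.2, 13.8 and 3.4 in Eμ-TCL1 and 0.6, 1.8, 3.9 and 7.8 in Eμ-TCL1;p53R172H/+ cells. The genotypes overlapped in both tables, narrowly in DMSO. Ank1, which anchors band 3 to the spectrin skeleton, was 145.6 against 0.2 to 1.7 and 104.6 against 0.5 to 3.6. The blood-group gene Kel was 72.1 in the erythroid-high DMSO library and at most 0.2 in the other 7. Ermap, a red-cell surface protein, was 56.5, 0.2 and 0.3 in Eμ-TCL1 and 0.9, 0.8, 0.6, 0.5 and 0.7 in Eμ-TCL1;p53R172H/+ cells in DMSO, so that the latter lay above the other 2 Eμ-TCL1 libraries by a few rounding steps. The Rh proteins Rhag and Rhd were 22.4 and 19.3 against at most 0.2 and 0.4, and the water channel Aqp1 was 33.2 against at most 0.9. In ibrutinib the other 6 libraries reached 0.9 for Kel, 2.1 for Ermap, 1.0 for Rhag, 1.5 for Rhd and 4.0 for Aqp1, and for all 5 of these genes that library was Eμ-TCL1 replicate 3.

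Sptb, the erythroid beta spectrin, was 158.4, 16.1 and 5.7 in Eμ-TCL1 and 1.3, 0.8, 36.1, 32.6 and 48.9 in Eμ-TCL1;p53R172H/+ replicates 1 to 5 in DMSO. The 2 libraries at 1.3 and 0.8 are the pair with low B-cell and high T-cell marker sums, and the 3 others lay above the 2 remaining Eμ-TCL1 libraries. In ibrutinib Sptb was 118.6, 9.3 and 3.6 in Eμ-TCL1 and 0.5, 3.6, 12.1 and 13.6 in Eμ-TCL1;p53R172H/+ cells, and the 0.5 again belonged to the library with the lowest B-cell sum. The part of B-cell and T-cell content in this gene was not tested.

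The erythroid regulators were near or at 0 outside the erythroid-high libraries. Gata1, the master factor of red cells and megakaryocytes, was 10.1, 0.2 and 0.1 in Eμ-TCL1 and 0.2, 0.3, 0.0, 0.0 and 0.0 in Eμ-TCL1;p53R172H/+ cells in DMSO, and 7.0, 0.2 and 0.1 against 0.2, 0.4, 0.3 and 0.2 in ibrutinib. Klf1, the factor that switches on adult beta globin, was 15.1, 0.0 and 0.1 in Eμ-TCL1 and 0.0, 0.1, 0.1, 0.0 and 0.1 in Eμ-TCL1;p53R172H/+ cells in DMSO, and 12.9, 0.2 and 0.1 against 0.2, 0.1, 0.3 and 0.1 in ibrutinib. Both factors were thus set apart in 1 library of each table. Epor, the receptor through which erythropoietin keeps progenitors alive, was 6.8 in the erythroid-high DMSO library, 0.1 in Eμ-TCL1 replicate 3 and listed at 0 in the other 6 libraries. With ibrutinib Epor was 6.3, 0.3 and 0.1 in Eμ-TCL1 and 0.0, 0.1, 0.2 and 0.0 in Eμ-TCL1;p53R172H/+ cells. Tal1, a partner of Gata1, was 38.5 against at most 0.5 and 28.8 against at most 0.9. Nfe2, which acts in late red cells and megakaryocytes, was 115.2 against at most 1.5 in DMSO and 121.7 against at most 7.1 in ibrutinib. The 7.1 was in Eμ-TCL1;p53R172H/+ replicate 3, and the next highest of these 6 libraries had 1.6. Values of 0.1 to 0.4 are 1 to 4 rounding steps of the deposited values, so no fold between such values is given here.

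The remaining erythroid genes behaved in the same way, apart from Xpo7. Car2, a carbonic anhydrase of the red cell, was 288.2, 1.5 and 2.2 in Eμ-TCL1 and 0.8, 0.8, 0.9, 0.8 and 1.5 in Eμ-TCL1;p53R172H/+ cells in DMSO, and 219.9, 3.6 and 1.5 against 0.7, 4.2, 4.4 and 5.1 in ibrutinib. Car1, another one, was 6.9 against at most 0.1 in DMSO and 5.6 against at most 0.2 in ibrutinib. Trim10 and Tspo2, which are expressed late in red-cell maturation, were 72.3 and 16.2 against at most 0.4 and 0.6 in DMSO, and 55.2 and 13.0 against at most 0.8 and 0.5 in ibrutinib. Xpo7, a nuclear exporter that is also active in other cells, was 424.8 against 65.3 to 121.1 in DMSO and 290.1 against 57.8 to 87.4 in ibrutinib.

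**Figure D2:**
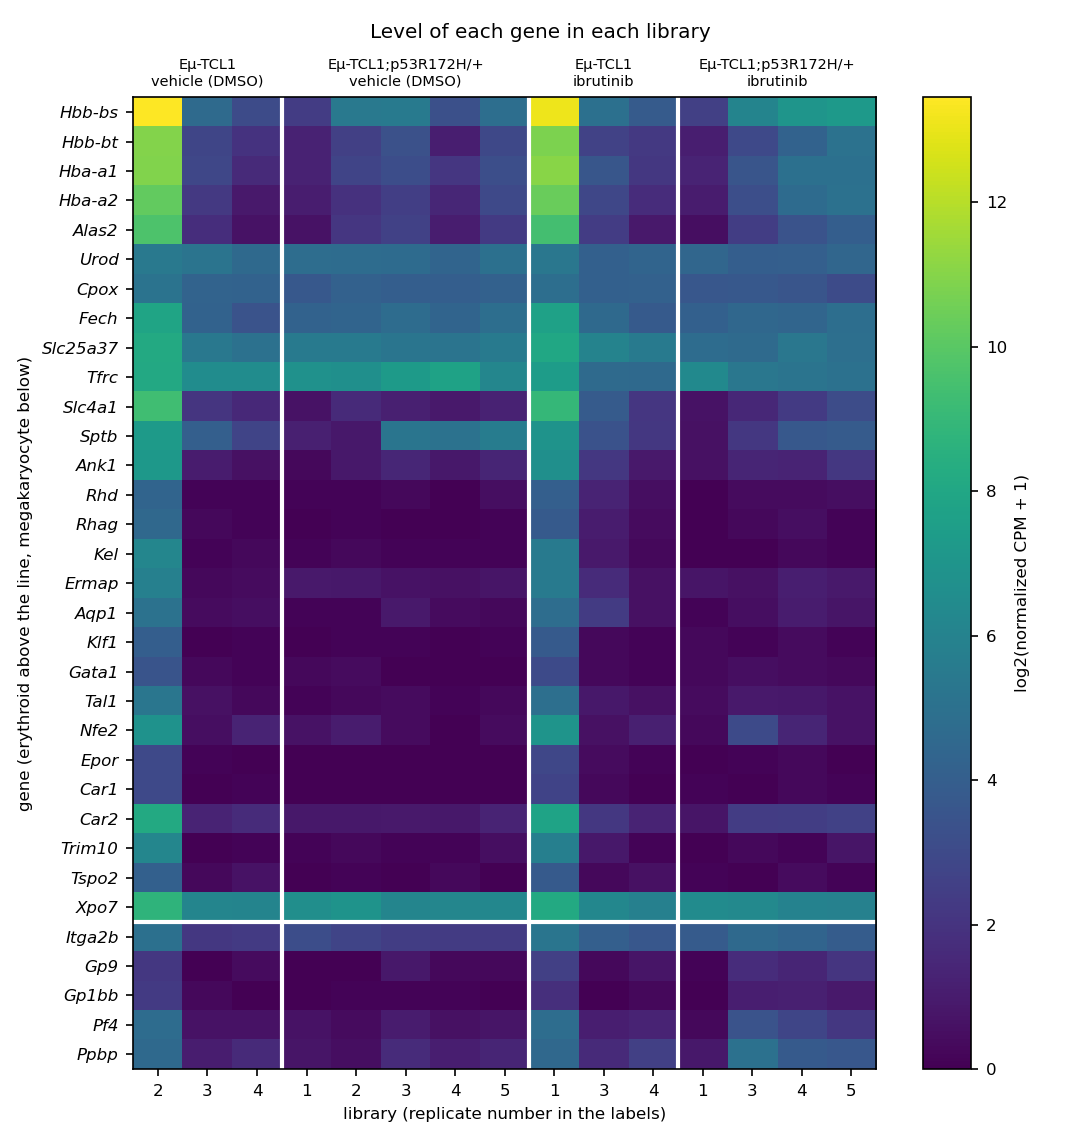
Level of each of the 33 listed genes in each of the 15 libraries, as log2 of normalized CPM plus 1, with genes in rows and libraries in columns by genotype and treatment. The first column of each Eμ-TCL1 block is bright in nearly every row (33 of 33 genes highest in DMSO, 32 of 33 in ibrutinib), and Tfrc, Xpo7, Urod, Cpox, Fech and Slc25a37 are at 7.5 normalized CPM or more in all columns.

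All 33 genes were highest in the erythroid-high library in DMSO, where 21.7% of all genes were, and 32 of 33 were in ibrutinib, where 26.6% of all genes were. The exception was the platelet gene Ppbp. In DMSO 26 of the 33 stood over 5 times above the next library, against 7.26% of all genes. In ibrutinib 23 did, against 6.21%. All 23 of these in ibrutinib were erythroid, as were 23 of the 26 in DMSO, so none of the 5 megakaryocyte genes stood out by that much in ibrutinib. The library was chosen for its erythroid sum, so these counts describe how widely the excess was shared and are not a test. The authors kept genes above 0.5 CPM, and 15 of the 33 genes in DMSO and 9 in ibrutinib had no other library above 1. Such genes may be listed only through the erythroid-high library, in which case being highest there follows from the filter. The 11 granulocyte and monocyte markers were also all highest in the erythroid-high library.

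Both erythroid-high libraries, whose labels give them different replicate numbers, ranked the 33 genes in nearly the same order. Across the 33 genes Pearson's r of log2(value + 1) was 0.995 and Spearman's rho 0.993, as a description of a single pair of libraries over genes of very different level. The median log2 ratio of the ibrutinib to the DMSO library was -0.28 over these genes and -0.21 over all 13180 genes with at least 1 normalized CPM in both. It ran from -0.80 for Rhag (22.4 and 12.9) to 0.46 for Gp9 (3.5 and 4.8), and 27 of the 33 genes were lower in the ibrutinib library. The tables were scaled separately, so a common shift between them has no reading.

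**Figure D3:**
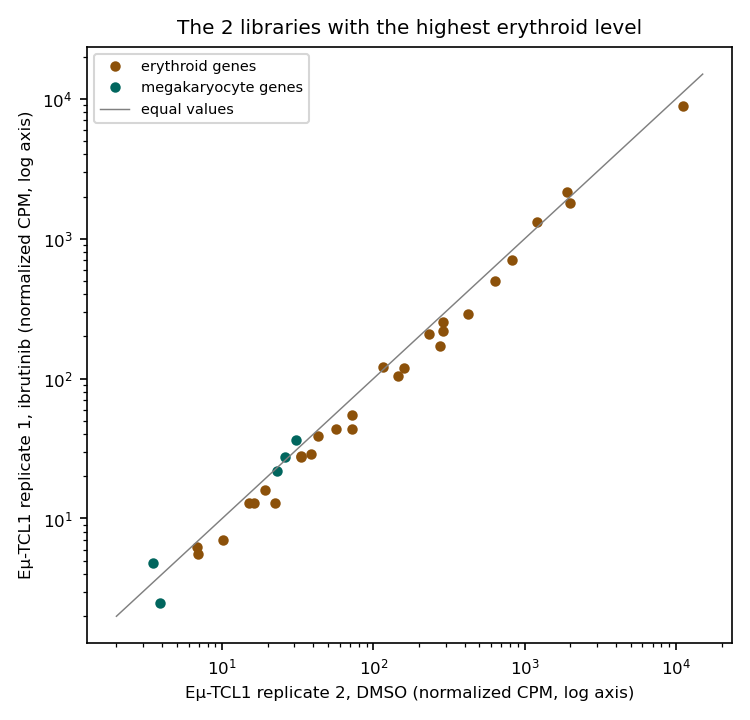
Level of each listed gene in Eμ-TCL1 replicate 2 in DMSO (x axis) and in Eμ-TCL1 replicate 1 in ibrutinib (y axis), both in normalized CPM on log axes. Each point is 1 gene, brown for erythroid and green for megakaryocyte, and the line marks equal values. Points follow the line over more than 3 orders of magnitude, with 27 of 33 below it.

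Whether the genotypes differ in these genes was asked in each treatment with limma across all genes, on log2(value + 1), with Benjamini-Hochberg adjustment over the table. In DMSO all 33 genes had a lower mean log2 level in Eμ-TCL1;p53R172H/+ cells, with a median log2 change of -1.35 against 0.04 over all genes. None passed, and 0.0121% of all genes did. By limma 0 of 33 had an unadjusted p under 0.05 (8.17% of all genes), and the smallest adjusted p was 0.632. The direction rested on Eμ-TCL1 replicate 2: without it 16 genes were lower and 17 higher, and the median was 0.00. Cpox was the only one of the 33 whose genotypes did not overlap, against 6.45% of all genes, with a log2 change of -0.52 (SE 0.27, adjusted p = 0.64 by limma). Its two-sided exact permutation p of 0.0179, unadjusted, is the smallest that 3 against 5 libraries can give. It restates the lack of overlap and is not separate support. Slc4a1, Tspo2 and Car2, whose genotypes overlapped, each had an exact permutation p of 0.0357 (two-sided, unadjusted). The share over all genes was not computed for this test. Without Eμ-TCL1 replicate 2, Cpox still had both Eμ-TCL1 values (18.7 and 17.9) above all 5 others (at most 17.1).

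In ibrutinib 30 of the 33 genes had a lower mean log2 level in Eμ-TCL1;p53R172H/+ cells, and the median log2 change was -1.49 against -0.05 over all genes. None of the 33 passed, and 0.0% of all genes did. Cpox and Slc25a37 had an unadjusted p under 0.05, as did 12% of all genes. Cpox changed by -0.89 on the log2 scale (SE 0.26, adjusted p = 0.313 by limma), and Slc25a37 by -1.59 (SE 0.56, adjusted p = 0.347 by limma). These 2 were also the genes without overlap, against 12.7% of all genes, and each had the smallest exact permutation p that 3 against 4 libraries allow (0.0286, two-sided, unadjusted). That p restates the lack of overlap and is not separate support. Leaving out Eμ-TCL1 replicate 1 gave 14 lower and 19 higher genes and a median of 0.03. Cpox and Slc25a37 kept their direction without it, but Slc25a37 moved from -1.59 to -0.85 on the log2 scale, with the lower of the remaining Eμ-TCL1 values at 16.4 for Cpox and 44.4 for Slc25a37 against at most 11.8 and 39.5 in Eμ-TCL1;p53R172H/+ cells.

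**Figure D4:**
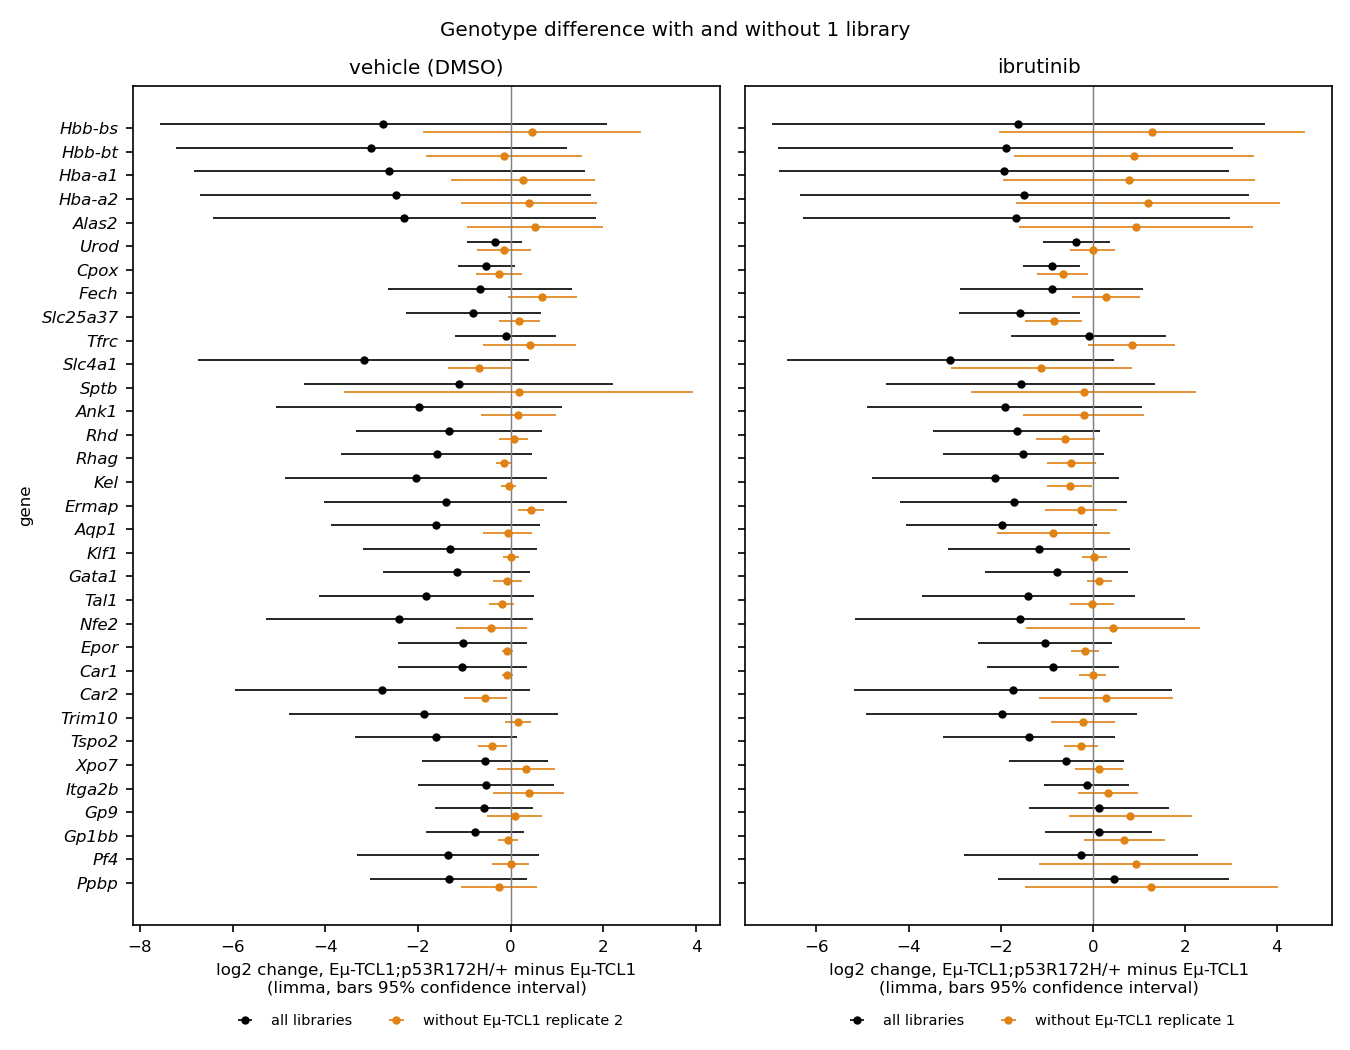
Log2 change of each gene, Eμ-TCL1;p53R172H/+ minus Eμ-TCL1, by limma in DMSO (left) and ibrutinib (right), with 95% confidence intervals. Black points use all libraries and orange points leave out the erythroid-high library. With all libraries every point in DMSO lies below 0 (median -1.35), and without that library the points scatter around 0 (16 below, 17 above).

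A further fit left out the erythroid-high library of each table together with Eμ-TCL1;p53R172H/+ replicates 1 and 2 in DMSO and replicate 1 in ibrutinib, which had the lowest B-cell and highest T-cell marker sums of their table, so that 2 Eμ-TCL1 were set against 3 Eμ-TCL1;p53R172H/+ libraries. This was chosen after the values were seen. Eμ-TCL1;p53R172H/+ replicate 3 in ibrutinib, with a B-cell sum of 609.1 and a T-cell sum of 1174.3, was kept, and no fit without it as well was run. In DMSO 4 of 33 genes then had an unadjusted p under 0.05, against 17.1% of all genes. Sptb (log2 change 1.89, SE 0.46) and Ermap (0.36, SE 0.09) were higher in Eμ-TCL1;p53R172H/+ cells, and Gata1 (-0.20, SE 0.06) and Slc4a1 (-0.67, SE 0.23) lower. The smallest adjusted p by limma was 0.178, for Sptb. There were 9 genes without overlap, 4 with Eμ-TCL1 higher and 5 with Eμ-TCL1;p53R172H/+ higher, against 32.7% of all genes. These shares lie near those of all genes. Ermap and Gata1 ran at 0.0 to 0.7 in these 5 libraries, a few rounding steps.

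In ibrutinib 11 of the 33 genes then had an unadjusted p under 0.05, against 17.7% of all genes, 9 of them higher in Eμ-TCL1;p53R172H/+ cells, and the smallest adjusted p by limma was 0.103. The 9 were Hbb-bs (log2 change 2.34, SE 0.49), Hbb-bt, Hba-a2, Alas2 and Tfrc of the erythroid genes, and Ppbp, Pf4, Gp9 and Gp1bb of the megakaryocyte genes. Cpox (-0.70, SE 0.24) and Slc25a37 (-0.79, SE 0.27) were lower. There were 12 genes without overlap, 10 with Eμ-TCL1;p53R172H/+ higher, against 34% of all genes. None passed the adjusted threshold. In the same 5 libraries the granulocyte and monocyte marker sum was 271.3 and 310.9 in Eμ-TCL1 and 1538.1, 505.0 and 280.9 in Eμ-TCL1;p53R172H/+ cells, the T-cell sum was 131.0 and 457.2 against 1174.3, 604.2 and 751.3, and the B-cell sum was 3803.6 and 2883.6 against 609.1, 1695.2 and 1456.3. The part of these cells in the result was not tested.

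Outside the erythroid-high libraries, 4 of the 5 megakaryocyte genes (Pf4, Ppbp, Gp9 and Gp1bb) were highest in Eμ-TCL1;p53R172H/+ replicates 3, 4 and 5 in ibrutinib, as were Hbb-bs, Hba-a2 and Car2 of the erythroid genes. This order was picked out after the values were seen and spans 2 tables that were scaled separately. Its share over all genes was not counted. Within ibrutinib, with 2 libraries left out, 2501 of all 16428 genes were higher in Eμ-TCL1;p53R172H/+ cells without overlap. Pf4, a platelet granule chemokine (chr5:90772435-90773383, plus strand), was 25.9, 0.6 and 0.6 in Eμ-TCL1 and 0.6, 0.3, 1.0, 0.5 and 0.7 in Eμ-TCL1;p53R172H/+ cells in DMSO. With ibrutinib Pf4 was 27.4, 1.2 and 1.5 in Eμ-TCL1 and 0.2, 9.7, 6.1 and 3.5 in Eμ-TCL1;p53R172H/+ replicates 1, 3, 4 and 5. The last 3 lay above the 2 lower Eμ-TCL1 libraries and above all 7 such libraries in DMSO.

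Ppbp, its neighbour on chromosome 5 and another platelet chemokine, was 23.0, 1.1 and 2.0 in Eμ-TCL1 and 0.7, 0.4, 2.1, 1.2 and 1.6 in Eμ-TCL1;p53R172H/+ cells in DMSO. With ibrutinib Ppbp was 22.0, 2.0 and 4.8 in Eμ-TCL1 and 0.8, 31.8, 12.8 and 11.7 in Eμ-TCL1;p53R172H/+ cells. Here replicate 3 of Eμ-TCL1;p53R172H/+ exceeded the erythroid-high library. Gp9 was 4.8, 0.2 and 0.7 in Eμ-TCL1 and 0.1, 2.3, 1.6 and 3.2 in Eμ-TCL1;p53R172H/+ cells in ibrutinib, and Gp1bb was 2.5, 0.0 and 0.2 against 0.0, 1.2, 1.3 and 0.9. Both belong to the receptor by which platelets bind von Willebrand factor. In DMSO neither passed 0.8 outside the erythroid-high library, where they were 3.5 and 3.9. Gp1bb shares 91.1% of its exon bases with Sept5 on the same strand, so its reads cannot be assigned with certainty.

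With all libraries, the log2 change in ibrutinib was 0.45 (SE 1.07) for Ppbp, -0.26 (SE 1.08) for Pf4, 0.14 (SE 0.65) for Gp9 and 0.13 (SE 0.50) for Gp1bb, and the smallest adjusted p of the 5 megakaryocyte genes by limma was 0.869. With the 2 libraries left out, the changes were 2.10 (SE 0.54), 1.58 (SE 0.41), 1.21 (SE 0.28) and 0.96 (SE 0.16), with adjusted p-values of 0.165, 0.166, 0.15 and 0.103. Of 26 other megakaryocyte and platelet genes, 10 had an unadjusted p under 0.05 in that fit, all higher in Eμ-TCL1;p53R172H/+ cells, against 17.7% of all genes in either direction, and none passed the adjusted threshold. In the DMSO fit with 3 libraries left out, 0 of these 26 did.

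Itga2b (integrin alpha-IIb, chr11:102453297-102470122, minus strand) did not follow this pattern. In DMSO it was 30.6, 3.5 and 3.8 in Eμ-TCL1 and 8.1, 5.8, 4.4, 4.0 and 4.1 in Eμ-TCL1;p53R172H/+ cells. With ibrutinib Itga2b was 36.4, 15.6 and 11.4 in Eμ-TCL1 and 13.7, 22.8, 19 and 14.3 in Eμ-TCL1;p53R172H/+ cells. The genotypes overlapped in both tables, with a log2 change of -0.53 (SE 0.64, adjusted p = 0.778 by limma) in DMSO and -0.13 (SE 0.39, adjusted p = 0.903 by limma) in ibrutinib.

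**Figure D5:**
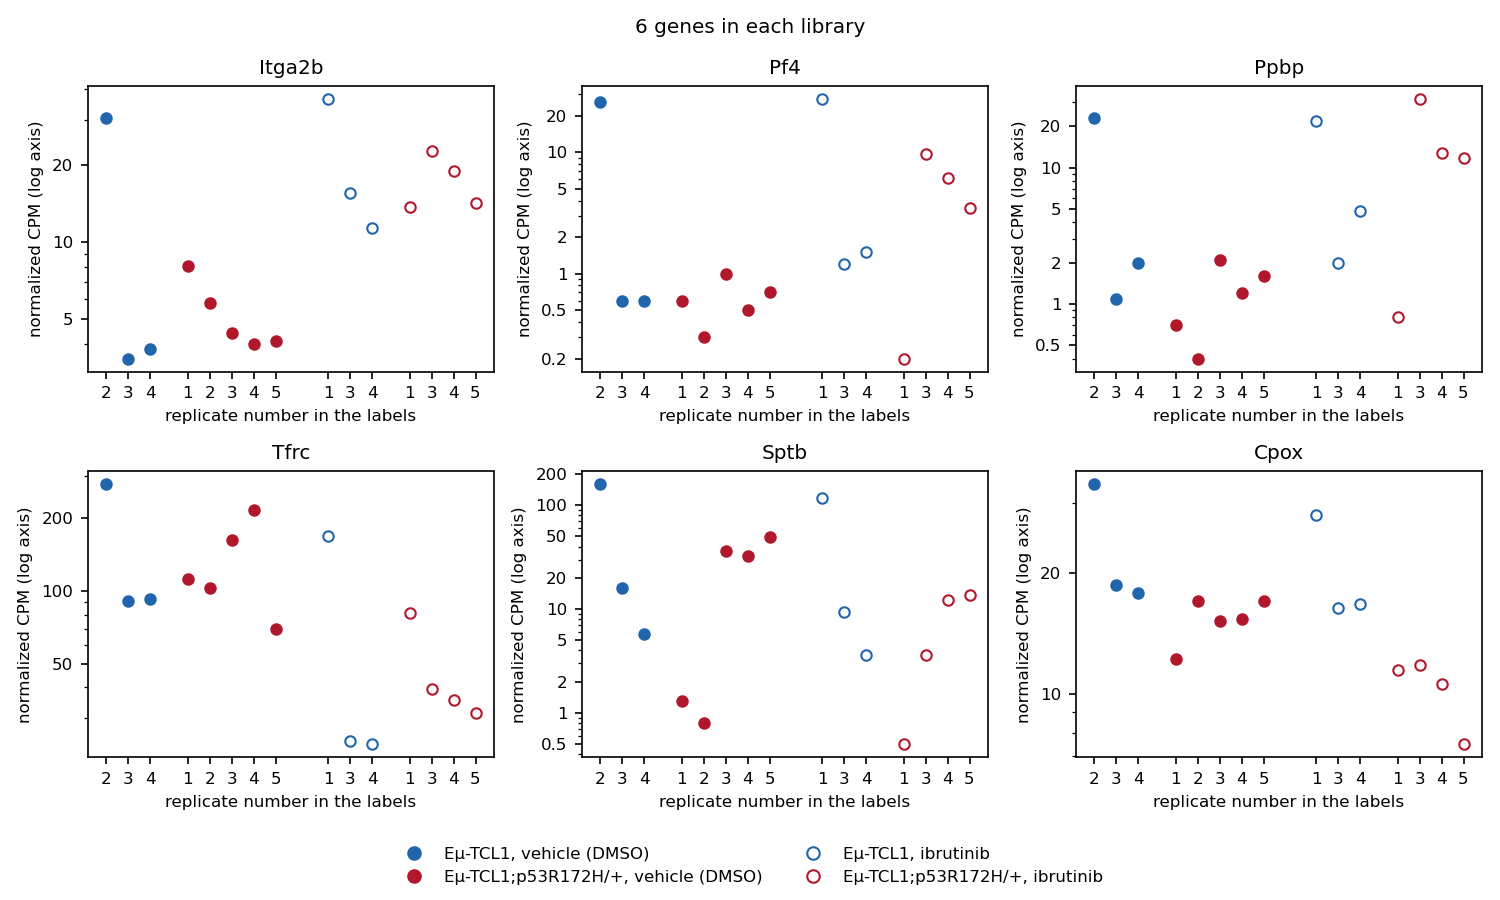
Level of Itga2b, Pf4, Ppbp, Tfrc, Sptb and Cpox in each library, in normalized CPM on log axes. Each point is 1 library, filled for DMSO and open for ibrutinib, blue for Eμ-TCL1 and red for Eμ-TCL1;p53R172H/+. Outside the erythroid-high libraries, Itga2b lies at 11.4 to 22.8 in ibrutinib and 3.5 to 8.1 in DMSO, Ppbp and Pf4 are high in 3 Eμ-TCL1;p53R172H/+ libraries in ibrutinib, and Cpox is higher in every Eμ-TCL1 library than in any Eμ-TCL1;p53R172H/+ library of the same treatment.

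Ibrutinib and DMSO libraries could only be set side by side, since the tables were scaled separately. Leaving aside the erythroid-high library of each, Itga2b was the only one of the 33 genes whose ranges were apart (11.4 to 22.8 in 6 ibrutinib libraries, 3.5 to 8.1 in 7 DMSO libraries). Only 0.151% of the 15869 genes in both tables lay wholly higher in ibrutinib, whereas 11.6% lay wholly lower, and the median gene with at least 5 normalized CPM in both tables shifted by -0.46 on the log2 scale. The rank of Itga2b within a library, which a scaling factor cannot change, was at the 35th to 44.2nd percentile in the DMSO libraries and at the 52.9th to 67.8th in the ibrutinib libraries. In the erythroid-high libraries Itga2b was 30.6 in DMSO and 36.4 in ibrutinib. Tfrc ran the other way, at 69.9 to 216.1 in DMSO and 23.3 to 81.2 in ibrutinib, with overlap. Within a library the ratio of Itga2b to Tfrc was 0.0185 to 0.0725 in these 7 DMSO libraries and 0.169 to 0.647 in these 6 ibrutinib libraries, without overlap. This comparison was picked out after the values were seen and was not tested.

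The interaction asked whether the genotype difference itself changed with treatment. This fit took all libraries as independent. Deviations from the group mean nevertheless correlated at 0.715 to 0.837 between same-numbered libraries of 1 genotype, apart from Eμ-TCL1;p53R172H/+ replicate 3 (-0.104). Libraries of a group enter the same mean, so these correlations do not settle which libraries are paired. None of the 33 genes passed, as for all 15869 genes (0.0%), and the smallest unadjusted p was 0.215, for Ppbp (log2 interaction 1.79, SE 1.37, adjusted p = 1.0 by limma). With 5 libraries left out, 7 of the 33 had an unadjusted p under 0.05, against 8.94% of all genes. Ppbp, Pf4, Gp9, Gp1bb, Car2 (log2 interaction 1.18, SE 0.40) and Gata1 (0.38, SE 0.14) had a positive interaction and Slc25a37 (-0.89, SE 0.35) a negative one, and the smallest adjusted p was 0.241, for Gp1bb. Gata1 ran at 0.0 to 0.4 in the libraries of this fit, a few rounding steps.

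Genes of the same pathways outside the 33 can be read against the same shares of all genes (21.7% and 26.6% highest in the erythroid-high library, 7.26% and 6.21% over 5 times above the next). Of 13 other heme and iron genes 10 were highest in the erythroid-high library in each table, but only 1 stood over 5 times above the next library. Of 22 other red-cell genes measured in DMSO 20 were highest there and 14 stood over 5 times above the next, and in ibrutinib 21 of 21 and 14. Of 12 other erythroid factors 4 in DMSO and 6 in ibrutinib were highest there. Of the 26 other megakaryocyte and platelet genes, 20 were highest in the erythroid-high library in DMSO and 19 in ibrutinib. In DMSO 13 of the 22 red-cell and 16 of the 26 megakaryocyte genes had no other library above 1 normalized CPM. In ibrutinib 10 of 21 and 6 of 26 had none, so the limit from the filter applies to these genes as well. None of the genes of these lists passed the adjusted threshold in either table.

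Some of them separated the genotypes with the erythroid-high library left in or out. With all libraries in DMSO, genotypes did not overlap for 3 of 13 heme and iron genes and 2 of 22 red-cell genes. For the 12 factors and 26 megakaryocyte genes it was 0, and over all genes 6.45%. In ibrutinib the counts were 2 of 13, 1 of 21, 2 of 12 and 0 of 26, against 12.7% of all genes. Alad, the second enzyme of heme synthesis, was 27.2, 40.3 and 53 in Eμ-TCL1 and 22.7, 16.6, 17.1, 17.6 and 19.1 in Eμ-TCL1;p53R172H/+ cells in DMSO (log2 change -1.03, SE 0.26, adjusted p = 0.377 by limma). Prdx2, an abundant peroxidase of red cells, was 119.2, 72.9 and 70.5 against 30.0, 29.2, 43.8, 47.0 and 47.9 in DMSO (-1.11, SE 0.28, adjusted p = 0.375 by limma). In ibrutinib Prdx2 was 118.6, 34.2 and 41.0 against 20.6, 16.4, 21.4 and 27.8 (-1.34, SE 0.43, adjusted p = 0.327 by limma). Prdx2 separated the genotypes in both tables and Alad in DMSO, with Eμ-TCL1 higher. With ibrutinib Alad was 22.5, 17.6 and 18.3 against 18.1, 8.4, 7.9 and 9.6, with overlap.

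Steap3, which reduces iron after its uptake, was 3.4, 1.5 and 2.7 in Eμ-TCL1 and 0.5, 0.6, 0.5, 1.9 and 0.5 in Eμ-TCL1;p53R172H/+ cells in DMSO, and 4.9, 5.8 and 12.3 against 0.3, 2.1, 2.8 and 0.3 in ibrutinib. The genotypes overlapped in DMSO and not in ibrutinib (log2 change -1.94, SE 0.51, adjusted p = 0.264 by limma). Abcb10, a mitochondrial transporter that pairs with mitoferrin-1, was 55.5, 16.2 and 14.7 against 4.2, 6.0, 9.9 and 10 in ibrutinib (-1.61, SE 0.51, adjusted p = 0.326 by limma). Abcb10 and Slc25a37 were thus both higher in every Eμ-TCL1 library than in any Eμ-TCL1;p53R172H/+ library in ibrutinib. In DMSO Abcb10 was 81.7, 22.1 and 24.0 against 7.1, 5.6, 18.7, 16.4 and 20.1, also without overlap, whereas Slc25a37 overlapped there.

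Among the factors, Bcl11a, which is also a B-cell gene, was 81.2, 313.6 and 195.1 against 8.8, 10, 63.3, 200.1 and 47.9 in DMSO and 54.4, 135.0 and 58.6 against 1.8, 13.9, 35.2 and 16.6 in ibrutinib. Its lowest values (8.8 and 10 in DMSO, 1.8 in ibrutinib) were in the libraries with the lowest B-cell marker sums. The erythroid-high libraries, with B-cell sums of 612.1 and 486.4, had 81.2 and 54.4. These lay above Eμ-TCL1;p53R172H/+ replicates 3 and 5 in DMSO and all Eμ-TCL1;p53R172H/+ libraries in ibrutinib. The B-cell sums of those libraries were 3877.8 and 3822.0 in DMSO and 70.2, 609.1, 1695.2 and 1456.3 in ibrutinib. The part of B-cell content in this gene was not tested. Myb, a progenitor factor, was 137.2, 87.2 and 58.9 in Eμ-TCL1 and 178.2, 294.1, 541.1, 106.8 and 445.2 in Eμ-TCL1;p53R172H/+ cells in DMSO, with the erythroid-high library highest of the Eμ-TCL1 libraries and still below 4 of the other 5. Other genes named by the rule were Blvrb, Ltbp1 and P2ry12 in DMSO (adjusted p = 0.553, 0.568 and 0.609 by limma) and Lyl1, Cd9 and Plek in ibrutinib (adjusted p = 0.347, 0.534 and 0.58), and all 6 had a lower mean log2 level in Eμ-TCL1;p53R172H/+ cells.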

How the data were processed

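RNA from 15 libraries of cultured splenic cells (24 h) was sequenced. The authors aligned reads with TopHat2 2.0.12 to GRCm38 (GENCODE M2) and counted them per gene with HTSeq, as the methods and the submitters' processing notes state; SAMtools 0.1.19 is also named there. The strand setting is not given in the sources used here. The authors kept genes above 0.5 CPM and normalized counts with edgeR, separately for DMSO and ibrutinib. The deposited values are a signal in normalized CPM, rounded to 0.1 by the authors; whole reads could not be recovered from them, which leaves depth unknown and counting error without an interval.

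Here, groups were taken from the sample titles; that of Eμ-TCL1 replicate 1 in ibrutinib spells the treatment unlike the others, while its treatment label and its table give ibrutinib. Genotypes were compared within a table with limma 3.58.1 (R 4.3.3; empirical Bayes with a mean-variance trend) on log2(value + 1) without a filter, and the interaction over the 15869 genes in both tables. A fold change on this scale understates changes of low genes. Adjustment was by Benjamini-Hochberg over all genes, at 0.05. Each listed gene was also tested by exact permutation over libraries. The code was tested on simulated data.

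Values in every library are printed for the globins, Alas2, Slc4a1, Gata1, Klf1, Epor, Tfrc, Pf4, Itga2b and any of the 34 genes with an unadjusted limma p under 0.05 or without overlap in the genotype comparison of a table with all libraries. Of other lists, the 2 genes with the lowest p per list and table are named, of which 1 is not reported here. Sptb, Ermap, Car2, Ppbp, Gp9, Gp1bb and the libraries left out together were chosen after their values were seen. The 34 genes and the lists were chosen with earlier results of these data known. Alternatives were the pseudocount (0.1, 5), quantile normalization, a filter keeping means of 5 or more, sample quality weights, the replicate number as a term, other sums and leaving out libraries. Promoters are from RefSeq (GRCm38.p6), with entries for 25 of the 34 genes; transcripts were aligned with Biopython 1.88.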

Additional observations from a re-analysis of the deposited data

Results flagged for a closer look

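In groups of 4 or 5 libraries, 51 sets of values were examined for a single library that stood apart by Dixon's criterion, and 4 did; chance gives about 1 in 20. In DMSO, the water channel gene Aqp1 was 0.9 in Eμ-TCL1;p53R172H/+ replicate 3 and 0.1 to 0.3 in the other 4 libraries of its group. The platelet gene Gp9 was 0.8 in the same library and 0.0 to 0.2 in the others. Car2, a carbonic anhydrase, was 1.5 in replicate 5 and 0.8 to 0.9 in the others. In ibrutinib, the transferrin receptor gene Tfrc was 81.2 in Eμ-TCL1;p53R172H/+ replicate 1 and 31.3 to 39.5 in the other 3. That library had the lowest B-cell and the highest T-cell marker sum of the ibrutinib libraries; their part in the Tfrc value was not tested. Eμ-TCL1 groups hold 3 libraries and were not examined.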

How the results depend on the processing

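No listed erythroid or megakaryocyte gene passed the adjusted threshold in any fit run, and no gene passed in the interaction. Over all genes, the 2 calls in DMSO became 6 with a pseudocount of 5, 803 with sample quality weights, 12 with 3 libraries left out, and 0 to 61 with 1 library left out (61 and 0 when Eμ-TCL1 replicates 2 and 3 were dropped, 5 when replicate 4 of Eμ-TCL1;p53R172H/+ was). The 0 calls in ibrutinib became 28 with weights and 0 to 24 with 1 library left out (24 when Eμ-TCL1 replicate 1 was dropped, 5 when replicate 5 of Eμ-TCL1;p53R172H/+ was). Listed genes without overlap numbered 1 in DMSO (1 to 7 with 1 library left out, 7 without Eμ-TCL1 replicate 4, 5 without replicate 2 or 3, 2 without Eμ-TCL1;p53R172H/+ replicate 2, 4 or 5, and 9 with 3 left out) and 2 in ibrutinib (5 with quantile normalization, 2 to 10 with 1 left out, 10 without replicate 4 of Eμ-TCL1, 5 without that of Eμ-TCL1;p53R172H/+, and 12 with 2 left out). Fewer libraries make overlap less likely; other causes were not tested.

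The log2 difference of the summed level, Eμ-TCL1;p53R172H/+ minus Eμ-TCL1, turned from lower to higher when the erythroid-high library was left out, except for the megakaryocyte sum in ibrutinib, which was already higher. The spread within Eμ-TCL1 is set by that same library. It was -1.64 for the erythroid sum in DMSO (-2.73 to 0.38 with 1 library left out) and -1.57 in ibrutinib (-2.72 to 0.45), and -1.01 (-1.73 to 0.28) and 0.10 (-0.30 to 0.87) for the megakaryocyte sum. The median log2 change of the 33 genes was -2.28 with a pseudocount of 0.1 in DMSO, and 0.00 and -0.11 with weights in DMSO and ibrutinib.

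Signs turned for Sptb and Ermap in DMSO (1.60 and 0.24 with weights, 1.89 and 0.36 with 3 libraries left out, -2.11 to 0.17 and -2.35 to 0.44 with 1 left out). In ibrutinib they turned with weights for Hbb-bs (1.34), Hbb-bt (0.62), Hba-a2 (1.10), Alas2 (0.82), Tfrc (0.50) and Pf4 (1.19), and with 2 libraries left out (2.34, 1.63, 2.03, 1.65, 0.55 and 1.58). With 1 left out the ranges were -3.35 to 1.29 for Hbb-bs, -3.39 to 0.90 for Hbb-bt, -3.12 to 1.20 for Hba-a2, -3.32 to 0.94 for Alas2, -0.56 to 0.85 for Tfrc, -0.90 to 0.94 for Pf4, -0.20 to 1.28 for Ppbp, -0.32 to 0.81 for Gp9 and -0.22 to 0.68 for Gp1bb.

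Same-numbered libraries of the 2 genotypes had deviations from their group means that correlated at 0.0517 to 0.247 in DMSO and -0.167 to -0.0535 in ibrutinib, so the numbers were not taken as pairs across genotypes. The main interaction fit did not pair libraries across treatments either, although most same-numbered libraries of 1 genotype correlated there. With the replicate block, 0 genes were called in DMSO, 0 in ibrutinib and 0 in the interaction, where the block was the replicate within a genotype. In ibrutinib the log2 change turned to 0.0717 for Tfrc and -0.11 for Gp9 with the block. Slc25a37 in ibrutinib was -1.59 with the block and -2.09 to -0.85 with 1 library left out, and its unadjusted p rose above 0.05 with the block and without Eμ-TCL1;p53R172H/+ replicate 1 or 3.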

Other observations

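Outside the 34 genes, the erythroid-high libraries also shared their most abundant immunoglobulin heavy-chain variable gene. It was Ighv9-3 in both, at 506.7 normalized CPM in DMSO and 328.3 in ibrutinib. In the other 4 Eμ-TCL1 libraries it was Ighv1-55, at 817.4 and 1093.9 in DMSO and 765.4 and 1146.3 in ibrutinib. Deviations from the group mean over the 15869 shared genes correlated at 0.891 between the erythroid-high libraries, which have replicate numbers 2 and 1. For same-numbered libraries of 1 genotype in the 2 treatments this value was 0.715 to 0.837, except Eμ-TCL1;p53R172H/+ replicate 3, at -0.104. Libraries of a group enter the same mean, so these values are descriptions.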
